A study of Mus musculus with 6 samples.

Results

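The subunits of the mitochondrial respiratory chain and of ATP synthase were followed through NMDA stimulation of cultured mouse cortical neurons. Members were the rows of the count table whose mouse gene symbol carries the standard prefix of a subunit of complex I (Ndufa, Ndufb, Ndufc, Ndufs and Ndufv genes), complex II (Sdha to Sdhd), complex III (Uqcr genes), complex IV (Cox4 to Cox8 genes) or complex V (Atp5 genes), or that of a protein-coding gene of the mitochondrial genome. The members reported here were 105 of the 38293 rows: 82 nuclear genes, 13 mitochondrial genes and 10 rows annotated or named as pseudogenes. By complex, the nuclear genes numbered 36 in complex I, 4 in II, 8 in III, 18 in IV and 16 in V, and the mitochondrial genes 7, 0, 1, 3 and 2.

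The respiratory chain passes electrons from NADH and succinate through complexes I to IV to oxygen and pumps protons across the inner mitochondrial membrane, and ATP synthase, complex V, uses the return of those protons to make ATP. Most subunits are encoded in the nucleus and imported, while a few hydrophobic core subunits of complexes I, III, IV and V are made inside the organelle from long transcripts of the mitochondrial genome, so each of these complexes needs products of both genomes. In neurons this system supplies most of the ATP that restores ion gradients after synaptic activity.

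Wild-type neurons came from the cortex of Swiss-Webster embryos at day 16 of gestation and were collected at day 13 in vitro. The control group was untreated (3 libraries), and the stimulated group received 50 µM NMDA, the agonist of the NMDA class of glutamate receptors, for 10 min and then 50 min of drug-free medium (3 libraries). RNA with an integrity number of 8 or more was made into stranded, poly(A)-selected, single-end libraries. Etoposide appears in the growth protocol that all samples share, yet none of the 6 libraries carries it as a treatment label. The protocol for RNA extraction counts 2 biological replicates where each group lists 3 samples, so the p-values below describe the spread among these samples only, which may be partly technical.

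Library totals ran from 15417234 to 19183999 counts, and 14642 genes passed the filter on low counts. The stimulus was visible in all 7 activity-induced genes used as a check, with Fos at 3.79, 2.67 and 3.43 CPM (counts scaled to library size with TMM factors, used throughout) in control replicates 1, 2 and 3 and at 105, 144 and 98.5 in NMDA replicates 1, 2 and 3. Same-numbered control and NMDA libraries departed from their group means in the same direction (correlations of 0.54, 0.38 and 0.49 over all tested genes), so replicate numbers were treated as pairs. Results come from a fit on group alone and, where a call depends on it, from a second fit that blocks on the number ("within pairs"). Neuronal markers were detected for 6 of 6 genes, with summed levels of 5646 to 6236 CPM in control and 5441 to 6351 CPM in NMDA libraries. Rbfox3 and Tubb3 were higher within pairs (log2 0.40 and 0.30, edgeR adjusted p = 0.0015 and 0.019). They are 33.3% of the list, beside 5.65% of all genes called higher. The others were not called, with log2 changes within pairs of -0.26 for Map2, -0.08 for Syt1, 0.04 for Snap25 and 0.12 for Stmn2. The cultures are whole dishes, so for every level below fewer cells of a type and less RNA per cell cannot be told apart.

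Few respiratory chain transcripts passed a test for a difference between the groups 50 min after NMDA was removed. Of the 89 members that passed the filter, none passed an adjusted p of 0.05 in edgeR's quasi-likelihood test on group alone (0 of 77 nuclear and 0 of 12 mitochondrial members, beside 0.43% of all genes tested), and 5 nuclear and 0 mitochondrial members had an unadjusted p under 0.05, as did 13.7% of all genes. DESeq2 and limma-voom on group alone also called 0 members, and the share of all genes they called is not given here. Within pairs, edgeR called 3 nuclear members, all higher with NMDA: Cox5a, Ndufa6 and Ndufa10. That is 3.896% of the nuclear members tested, beside 14.0% of all genes called in either direction and 5.65% called higher in the same fit. An unadjusted p under 0.05 within pairs was found for 17 nuclear and 1 mitochondrial member, beside 28.7% of all genes. Without pair 1 the blocked fit called 18 nuclear members of 77, beside 18.4% of all genes tested in it, without pair 2 it called 3 (6.9% of all genes) and without pair 3 it called 2 (9.93%).

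Direction differed between the genomes, by less than the spread among the control libraries. The median log2 difference (NMDA over control) was 0.07 over the 77 nuclear members, of which 58 were positive, and -0.13 over the 12 mitochondrial members, of which 2 were positive, beside -0.0054 over all genes tested. Within pairs the medians were 0.08 and -0.10. The nuclear median was -0.09 in pair 1, 0.05 in pair 2 and 0.29 in pair 3, and the mitochondrial median was -0.17, -0.33 and 0.27. Neither sign held in every pair. Without control replicate 3 the nuclear median was -0.02, and without control replicate 1 the mitochondrial median was 0.11. Within pairs, the nuclear median was -0.01 without pair 3 and the mitochondrial median 0.03 without pair 2.

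**Figure D1:**
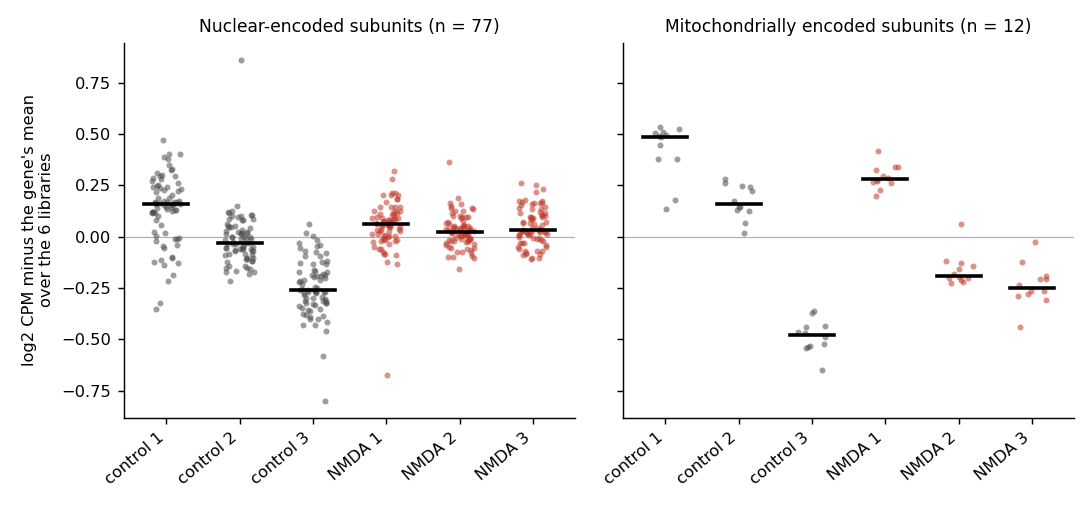
Each point is 1 tested subunit in 1 library, as its log2 CPM minus its mean over the 6 libraries, with black bars at the medians; nuclear-encoded subunits are on the left and mitochondrially encoded subunits on the right. Control 1 lies highest and control 3 lowest in both panels, and the NMDA medians of both genomes lie between those 2 controls.

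The controls themselves set the widest contrast. Relative to each gene's mean over the 6 libraries, the nuclear members had medians of 0.16, -0.03 and -0.26 in control replicates 1, 2 and 3 and of 0.06, 0.02 and 0.03 in NMDA replicates 1, 2 and 3. The mitochondrial members had medians of 0.49, 0.16 and -0.48 in the controls and of 0.28, -0.19 and -0.25 in the NMDA libraries. Control 3 was the lowest of the 6 libraries for 59 of 77 nuclear members (76.6%), beside 15.3% of all genes tested, and control 1 the highest for 49 (63.6%), beside 25.6%. All 3 NMDA values fell inside the control range for 50 of 77 nuclear members (64.9%), beside 16.9% of all genes. The same was so for 9 of 12 mitochondrial members.

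NMDA libraries all lay above all controls for 12 nuclear members (15.6%, beside 8.18% of all genes tested), among them Ndufa10, Uqcrc1, Uqcrfs1, Cox5a, Cox7a2l, Atp5a1 and Atp5b. All lay below the controls for 0 members, beside 11.1% of all genes tested. NMDA was higher in all 3 pairs for 19 nuclear members (24.7%, beside 22.5% of all genes) and lower in all 3 pairs for Uqcrc2 and mt-Nd5 alone, beside 25.7% of all genes. These names were picked by their values and are a description.

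Gene length and markers of other cells were set beside this order of the controls. Among nuclear members the log2 ratio of control 1 to control 3 was larger for short genes: its median was 0.49 for the 18 members with up to 1000 bases of exon and 0.34 for the 10 with more than 4000, beside 0.31 and -0.03 for all nuclear genes of those lengths, and its rank correlation with exonic length was -0.30 over 77 members and -0.09 over 14472 genes (across genes, which are not independent). Oligodendrocyte markers (5 of 5 tested, none at 0) summed to between 69.3 and 211 CPM in control and 78.7 and 188 CPM in NMDA libraries. Mag, a myelin glycoprotein gene, stood at 10.6, 1.06 and 1.002 CPM in controls 1, 2 and 3 and at 8.72, 0.992 and 1.07 CPM in NMDA 1, 2 and 3, so both libraries numbered 1 were high. Astrocyte markers (8 of 8 tested) summed to 2160 to 2831 CPM in control and 2333 to 3562 CPM in NMDA libraries, and 7 of them were higher within pairs (87.5%, beside 5.65% of all genes). The median of these markers relative to their 6-library mean was -0.38, -0.15 and 0.12 log2 in controls 1, 2 and 3, the reverse of the order of the respiratory genes there. In NMDA 1, 2 and 3 it was -0.18, 0.23 and 0.41. The nuclear members had 0.06, 0.02 and 0.03 in these libraries and the mitochondrial members 0.28, -0.19 and -0.25. Fibroblast and mural markers (3 of 4 tested) summed to 83.2 to 122 CPM in control and 113 to 230 CPM in NMDA libraries. Progenitor markers (4 of 4) summed to 471 to 635 CPM and 504 to 750 CPM. In each list 2 were higher within pairs (66.7% and 50.0%, beside the same 5.65%). In the first list these were the mural genes Tagln and Acta2. The collagen gene Col1a1 was lower in each pair and not called (log2 -0.21 within pairs), and Col3a1 was not tested. Markers of precursors of oligodendrocytes (4 of 4) ranged from 392.1 to 742 CPM in control and from 473 to 742 CPM in NMDA libraries. Excitatory markers (6 of 6) ranged from 508 to 622 CPM and from 495 to 584 CPM, with 0 higher within pairs. Inhibitory markers (6 of 6) ranged from 511 to 551 CPM and from 564 to 605 CPM, with 1 higher (Sst, 16.7%, beside the same 5.65%). Microglial markers (2 of 5 tested) reached at most 4.23 CPM and endothelial markers (1 of 4, with Cldn5 at 0 in every library) at most 3.17 CPM. The part of length and of these cells in the results was not tested.

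Counts from the mitochondrial genome outweighed those from nuclear subunit genes throughout. Mitochondrially encoded members took 16.4%, 13.8% and 9.04% of a library's counts in controls 1, 2 and 3 and 14.3%, 10.9% and 10.3% in NMDA 1, 2 and 3, and nuclear members took 1.03%, 0.963%, 0.876%, 0.984%, 1.01% and 1.01%. Neither share differed between the groups beyond the spread (p = 0.7 and 0.4, two-sided exact permutation tests, for which 0.1 is the smallest p possible with 3 against 3 libraries). The mitochondrial genes are not spliced and many copies of their genome sit in 1 cell, so the 2 sums come from different numbers of templates. Why the sums differ was not tested.

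The ratio of the 2 sums, which does not depend on how libraries are scaled to each other, was 15.96, 14.4 and 10.3 in controls 1, 2 and 3 and 14.6, 10.8 and 10.2 in NMDA 1, 2 and 3. NMDA was the lower of each pair, by 0.13, 0.41 and 0.02 on the log2 scale. The log2 ratio averaged 3.74 ± 0.33 (SD, n = 3) without and 3.55 ± 0.28 (SD, n = 3) with NMDA, a difference of -0.19 with an exact permutation p of 0.5, adjusted to 0.8 over the 5 ratios tested. Flipping signs over the 3 pairs gave an exact p of 0.25, the smallest possible with 3 pairs.

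In each complex with subunits of both genomes control 1 had the highest ratio, and the groups overlapped. In complex I it was 22.8, 21.8 and 15.3 in the controls and 21.2, 15.4 and 14.3 with NMDA, lower in 3 of 3 pairs. The corresponding values were 28.7, 25.7 and 20.9 against 26.4, 21.1 and 20.1 in complex IV, again lower in every pair. Complex III gave 17.5, 15.7 and 11.2 against 16.3, 12.5 and 11.4, and complex V 4.93, 4.21 and 2.92 against 4.38, 3.19 and 3.11, each lower in 2 pairs and slightly higher in pair 3. The mean log2 differences were -0.24, -0.14, -0.15 and -0.16 for complexes I, III, IV and V, with exact permutation p-values of 0.3, 0.8, 0.5 and 0.7 (adjusted p = 0.8 for each). Single libraries moved these differences: without control 1 they were -0.06 over all complexes and -0.13, -0.0029, -0.05 and 0.0040 for complexes I, III, IV and V, and without control 3 they were -0.37, -0.42, -0.33, -0.28 and -0.37. Without NMDA 1 the difference over all complexes was -0.35 and without NMDA 3 it was -0.09.

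**Figure D2:**
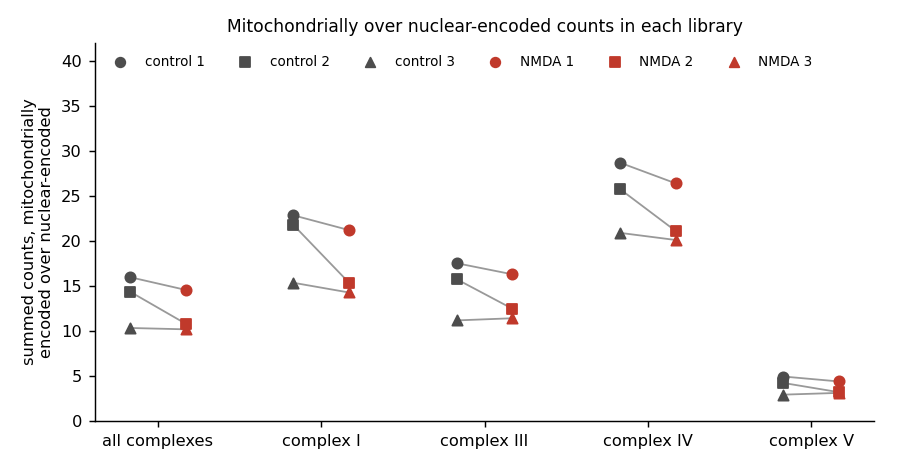
Summed counts of mitochondrially encoded over nuclear-encoded members (linear axis from 0) in each library, for all complexes and for complexes I, III, IV and V, with lines joining libraries of the same replicate number. The control and NMDA ranges overlap in every column, and the difference is widest in pair 2.

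The mitochondrial genome encodes 7 complex I subunits, all in the membrane arm that pumps protons, of which 6 were counted. mt-Nd1, next to the quinone site, measured 13620, 11190 and 6583 CPM in controls 1, 2 and 3 and 12130, 8295 and 7764 CPM in NMDA 1, 2 and 3. mt-Nd2 measured 9502, 8760 and 5293 CPM against 8843, 6436 and 6084 CPM. mt-Nd4, like mt-Nd2 and mt-Nd5 a subunit of the antiporter type, measured 19850, 17230 and 10740 CPM against 17570, 12480 and 11940 CPM. In all 3 genes control 1 was highest and control 3 lowest, with the NMDA values between. mt-Nd3 measured 1189, 1102 and 818 CPM against 1263, 969 and 1031 CPM. mt-Nd6, the subunit encoded on the opposite strand, measured 5060, 3989 and 2507 CPM against 4510, 3140 and 3058 CPM. The groups overlapped for both. Their log2 differences were -0.16 for mt-Nd1, -0.14 for mt-Nd2, 0.07 for mt-Nd3, -0.19 for mt-Nd4 and -0.11 for mt-Nd6.

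mt-Nd5 (ENSMUSG00000064367, chrM:11742-13565, plus strand) had the lowest log2 difference of the mitochondrial members. Its levels were 16490, 13950 and 8854 CPM in controls 1, 2 and 3 and 13440, 9848 and 8448 CPM in NMDA 1, 2 and 3. Controls 1 and 2 exceeded all NMDA libraries, while control 3 lay near the lowest. The log2 difference was -0.31 ± 0.25 (SE), with an edgeR adjusted p of 0.62, and -0.29 ± 0.13 within pairs, with an adjusted p of 0.13. DESeq2 with the replicate block called it (adjusted p = 0.036), whereas limma-voom with the block did not (0.092). The log2 differences within the pairs were -0.30, -0.50 and -0.07. On group alone the log2 difference was -0.11 without control 1 and -0.52 without control 3, and -0.51 without NMDA 1 and -0.15 without NMDA 3.

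As a share of all mitochondrially encoded mRNA counts, which removes the difference in total between libraries, mt-Nd5 held 9.69%, 10.2% and 10.1% in controls 1, 2 and 3 and 9.07%, 9.18% and 8.30% in NMDA 1, 2 and 3. Every NMDA library was below every control. The means were 9.98% ± 0.255 and 8.85% ± 0.482 (SD, n = 3 each), with an exact permutation p of 0.1, the smallest possible, adjusted to 0.6 over the 12 shares. mt-Co2 was the only other gene whose shares did not overlap, at 7.75%, 8.15% and 7.95% in the controls against 8.66%, 8.64% and 8.71% with NMDA (p = 0.1, exact permutation, adjusted to 0.6). Shares add up to a fixed total, so a lower share of 1 gene raises the others.

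mt-Cytb, the cytochrome b of complex III, measured 19450, 15580 and 9547 CPM in controls 1, 2 and 3 and 16810, 12390 and 11480 CPM in NMDA 1, 2 and 3. The complex IV gene mt-Co1, for the subunit that binds oxygen, measured 37230, 28040 and 18590 CPM against 31490, 22330 and 21140 CPM. mt-Co2, for the subunit that takes electrons from cytochrome c, measured 13190, 11190 and 6975 CPM against 12820, 9269 and 8868 CPM. For these genes, too, the NMDA libraries sat inside the control range. mt-Co3 measured 15410, 11150 and 8137 CPM against 12650, 9979 and 10110 CPM. Its log2 difference was -0.08, beside -0.13 for mt-Cytb, -0.16 for mt-Co1 and -0.02 for mt-Co2.

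**Figure D3:**
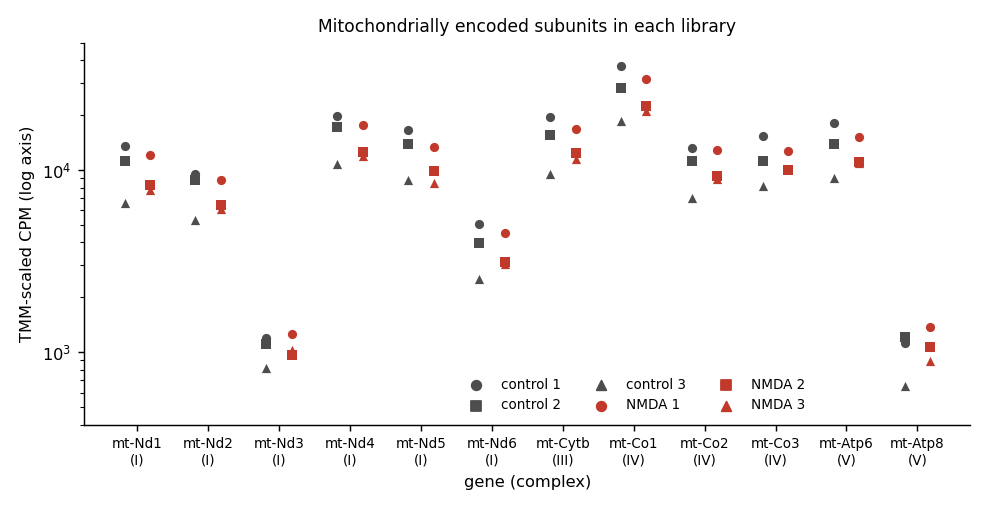
TMM-scaled CPM on a log axis for the 12 mitochondrially encoded genes that were counted, with control libraries in grey to the left, NMDA libraries in red to the right and 1 marker shape per replicate number. The controls span more than the NMDA libraries for each gene, from 818 to 1189 CPM in mt-Nd3 and from 18590 to 37230 CPM in mt-Co1.

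mt-Atp6, for the subunit that forms the proton path of ATP synthase, measured 18050, 13850 and 9027 CPM in controls 1, 2 and 3 and 15210, 11020 and 10970 CPM in NMDA 1, 2 and 3. mt-Atp8 measured 1128, 1217 and 655 CPM against 1369, 1071 and 891 CPM, with its highest value in NMDA 1. The log2 differences were -0.14 and 0.15. These neighbours share bases: the end of mt-Atp8 and the start of mt-Atp6 are the same 43 bases, and the end of mt-Nd4l and the start of mt-Nd4 the same 7. The stretches are shown, with the shared bases in capitals and 30 bases on each side (GRCm38, plus strand, chrM:7897-7999 and chrM:10137-10203), because a read that covers them belongs to both genes.
mt-Atp8 end and mt-Atp6 start: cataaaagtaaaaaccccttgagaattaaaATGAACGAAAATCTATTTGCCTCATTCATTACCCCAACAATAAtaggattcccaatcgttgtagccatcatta
mt-Nd4l end and mt-Nd4 start: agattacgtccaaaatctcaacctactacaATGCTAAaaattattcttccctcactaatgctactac
The mt-Nd4l gene has 297 bases and was listed at 0 in all 6 libraries.

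Part of the mitochondrial genome also exists as copies in nuclear chromosomes. How far a gene's sequence is found again may bear on its counts, which was not tested. Of the 50-base stretches of mt-Nd4l, 98.8% occur in Gm10222 (chr1:24612407-24612700, minus strand, an unprocessed pseudogene), which had 67, 118 and 40 counts in controls 1, 2 and 3 and 109, 65 and 74 in NMDA 1, 2 and 3. For mt-Co2, mt-Co3, mt-Atp6 and mt-Nd3 the share found in other annotated transcripts was 100%, 99.9%, 99.5% and 97.99%, for mt-Nd4 62.2% and for mt-Co1 51.1%, in copies on chromosomes 1 and 2 for the most part. The share was 8.19% for mt-Nd2 and 7.61% for mt-Nd5, and 0 for mt-Nd1, mt-Nd6, mt-Cytb and mt-Atp8. Levels per length of the genes with large shares are uncertain, since the treatment of reads with several positions is not given in the sources used here. mt-Nd6 also overlaps mt-Nd5 on the other strand by 14 bases, and whether the counting used strand is not given either. Since transcripts of the mitochondrial genome are long, counting without strand could give mt-Nd6 reads of the other strand beyond these bases. Its level of 7150 CPM per kilobase, beside 6490 for mt-Nd5, and its differences are therefore uncertain.

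Per length, the order of the mitochondrial genes spanned a wide range. mt-Atp6 was highest at 19120 CPM per kilobase (mean of 6 libraries, range 13260 to 26500), followed by mt-Co1 at 17130, mt-Co2 at 15180, mt-Co3 at 14340 and mt-Cytb at 12420. The ranges of these neighbours over the libraries overlapped. In complex I mt-Nd4 came first at 10860 CPM per kilobase and mt-Nd3 last at 3052, and mt-Atp8 stood at 5172. By comparison the highest nuclear member, Cox6b1, reached 396 CPM per kilobase.

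Complex I takes electrons from NADH and has the most nuclear subunits. All 36 were tested. None passed on group alone, 29 had a positive log2 difference, the median was 0.07 and the range -0.14 to 0.25. Within pairs 2 rose (5.56%, about the 5.65% of all genes called higher).

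Ndufa6 (ENSMUSG00000022450, chr15:82350140-82354322, minus strand) encodes an accessory subunit of the LYR family that holds an acyl carrier protein. It measured 45.8, 54.0 and 46.8 CPM in controls 1, 2 and 3 and 52.4, 58.6 and 63.2 CPM in NMDA 1, 2 and 3. NMDA was the higher in each pair, although NMDA 1 lay below control 2. The means were 48.9 ± 4.46 and 58.1 ± 5.43 CPM (SD, n = 3). The log2 change was 0.25 ± 0.10 (SE) on group alone, with an edgeR adjusted p of 0.33, and 0.25 ± 0.08 within pairs, with an adjusted p of 0.039. With the block it was not called by DESeq2 (0.15), with exonic length offsets (0.053), or when pair 2 (0.061) or pair 3 (0.33) was left out.

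Ndufa10 (ENSMUSG00000026260, chr1:92439010-92473860, minus strand) encodes an accessory subunit at the joint of the membrane and matrix arms. It measured 109, 115 and 120 CPM in the controls and 135, 128 and 139 CPM in the NMDA libraries. The groups did not overlap. The log2 change was 0.23 ± 0.08 (SE) on group alone, with an edgeR adjusted p of 0.27, and 0.23 ± 0.07 within pairs, with an adjusted p of 0.040. DESeq2 with the block did not call it (0.088), and neither did the blocked edgeR fits without pair 1 (0.062), pair 2 (0.18) or pair 3 (0.068).

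The core subunits Ndufs1 and Ndufv1, which carry iron-sulfur clusters and the flavin that receives electrons from NADH, did not pass in either fit. Ndufs1 measured 96.6, 105 and 110 CPM in controls 1, 2 and 3 and 110, 106 and 107 CPM in NMDA 1, 2 and 3. Ndufv1 measured 70.0, 54.9 and 62.9 CPM against 58.2, 70.0 and 68.2 CPM. Both sets of NMDA values lay within the control range, and the log2 differences were 0.05 and 0.06. Ndufa4, which the rule places here by its symbol although its protein is also assigned to complex IV, was the most abundant per length at 193 CPM per kilobase, with 324, 259 and 210 CPM against 264, 271 and 267 CPM (log2 0.02). Ndufb2 had the lowest log2 difference, -0.14, with 31.4, 26.7 and 21.1 CPM against 24.6, 23.4 and 24.2 CPM. Here control 1 was again the highest library and control 3 the lowest. Exons of Ndufb2 overlap Braf and Gm16272 on the opposite strand.

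Complex II, succinate dehydrogenase, is encoded wholly in the nucleus and also belongs to the citric acid cycle. All 4 genes were tested, none passed in either edgeR fit or had an unadjusted p under 0.05 (0 in each), and the 4 log2 differences were positive, from 0.0066 to 0.12. Sdha, for the flavin-binding catalytic subunit, had the largest, with 184, 186 and 200 CPM in controls 1, 2 and 3 and 195, 202 and 220 CPM in NMDA 1, 2 and 3. It was higher with NMDA in each pair and the groups overlapped. Sdhb, the iron-sulfur subunit, measured 110, 97.95 and 86.4 CPM against 106, 104 and 101 CPM (log2 0.07). Sdhd, a membrane anchor and the most abundant per length at 79.1 CPM per kilobase, measured 108, 98.1 and 85.0 CPM against 92.1, 101 and 100 CPM (log2 0.0066). The anchor and Sdhb had NMDA values inside the control range.

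Complex III passes electrons from ubiquinol to cytochrome c. All 8 nuclear genes were tested and none passed in either edgeR fit. An unadjusted p under 0.05 was found for 0 on group alone and 2 within pairs, beside 13.7% and 28.7% of all genes. The median log2 difference was 0.08. Uqcrfs1, for the Rieske iron-sulfur protein, measured 96.97, 85.2 and 90.8 CPM in controls 1, 2 and 3 and 98.3, 98.9 and 107 CPM in NMDA 1, 2 and 3. Uqcrc1, for a core protein on the matrix side, measured 108, 98.2 and 104 CPM against 113, 116 and 116 CPM. Neither overlapped between groups, with log2 differences of 0.16 each and edgeR adjusted p-values of 0.16 and 0.15 within pairs. The partner core protein Uqcrc2 went the other way, at 265, 238 and 224 CPM against 249, 220 and 222 CPM, lower in each pair by a small margin (log2 -0.07, adjusted p = 0.57 within pairs). Uqcrh, for the hinge protein and the most abundant per length at 175 CPM per kilobase, measured 251, 234 and 172 CPM against 227, 217 and 200 CPM (log2 -0.03). Uqcr11 had the largest positive difference, 0.16, with 85.3, 70.4 and 60.7 CPM against 78.7, 79.5 and 83.7 CPM. For both of these control 1 was the highest library and control 3 the lowest.

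Complex IV, cytochrome c oxidase, reduces oxygen. Of its 18 nuclear genes 13 were tested, none passed on group alone, and 8 log2 differences were positive, with a median of 0.07. Cox5a alone rose within pairs (7.69% of those tested, beside 5.65% of all genes), and it did so by the most of all members.

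Cox5a (ENSMUSG00000000088, chr9:57521274-57532426, plus strand) encodes a subunit on the matrix side that joins Cox4 early in assembly. It measured 36.02, 46.4 and 40.3 CPM in controls 1, 2 and 3 and 52.2, 52.5 and 51.5 CPM in NMDA 1, 2 and 3. The NMDA libraries were nearly equal and all lay above the controls. The means were 40.9 ± 5.22 and 52.1 ± 0.530 CPM (SD, n = 3). The log2 change was 0.35 ± 0.11 (SE) on group alone, with an edgeR adjusted p of 0.21, and 0.35 ± 0.08 within pairs, with an adjusted p of 0.0063. Unlike Ndufa6 and Ndufa10, it was called in every blocked fit that was run, including DESeq2 (0.028), limma-voom (0.0075), length offsets (0.015) and the fits without pair 1 (0.017), pair 2 (0.0035) or pair 3 (0.0092). Its exons share 269 bases with Gm26631 on the opposite strand, so part of its counts is uncertain if the counting ignored strand.

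**Figure D4:**
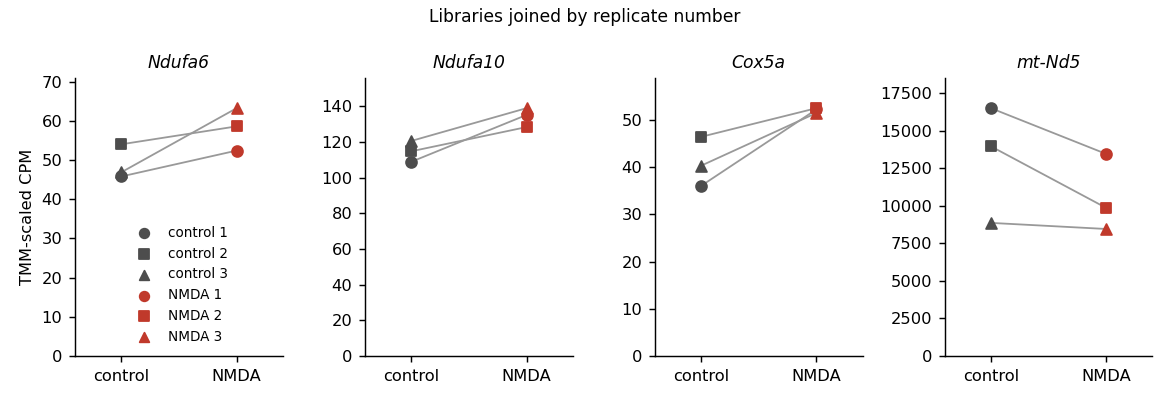
TMM-scaled CPM (linear axes from 0) of Ndufa6, Ndufa10, Cox5a and mt-Nd5 in control and NMDA libraries, with lines joining libraries of the same replicate number. NMDA is higher in each pair for the 3 nuclear genes and lower in each pair for mt-Nd5, whose control values spread from 8854 to 16490 CPM.

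Cox4i1, the partner of Cox5a, measured 493, 423 and 346 CPM in controls 1, 2 and 3 and 461, 412 and 388 CPM in NMDA 1, 2 and 3, with equal means of 421 CPM and a log2 difference of -0.00012. Cox6b1, on the intermembrane side and the most abundant nuclear member per length, measured 317, 272 and 231 CPM against 309, 274 and 278 CPM (log2 0.07). Both had NMDA values inside the control range. Cox6a1 measured 170, 138 and 123.4 CPM against 168, 155 and 164 CPM (log2 0.18). Cox7a2 measured 206, 165 and 126 CPM against 172, 151 and 163 CPM (log2 -0.04), and Cox8a 128, 102 and 89.6 CPM against 122.6, 122 and 126 CPM (log2 0.22). In each of these genes control 3 was the lowest library.

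Several complex IV subunits have a common and a tissue-restricted form, and the common form took nearly all counts. Cox4i1 took 99.9% to 100% of the counts of its pair, and Cox4i2, an oxygen-responsive form known from lung, had 2 to 8 counts per library. Cox6a1 took 99.5% to 99.9%, against 3 to 13 counts for the muscle form Cox6a2. Cox8a took 99.9% to 100% of its family, with at most 1 count for the muscle form Cox8b and 2 for the testis form Cox8c, and Cox7b2 had at most 5. These 5 minor forms did not pass the filter. The muscle form Cox7a1 passed it at 0.758, 1.17 and 0.369 CPM in the controls and 0.402, 0.716 and 0.746 CPM with NMDA, and had the lowest log2 difference of complex IV, -0.27 ± 0.48 (SE), with 6 to 21 counts per library behind it. Cox6b2, known from testis, had 103 to 168 counts, 1.78% to 3.27% of its pair, at 5.74, 7.62 and 6.28 CPM against 6.91, 9.26 and 7.89 CPM, higher in each pair (log2 0.30, edgeR adjusted p = 0.16 within pairs).

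Complex V, ATP synthase, had 16 nuclear genes among the members reported here, all tested, and none of these passed in either edgeR fit. An unadjusted p under 0.05 was found for 0 on group alone and 1 within pairs, beside 13.7% and 28.7% of all genes. The median log2 difference was 0.07. Atp5a1 and Atp5b encode the alpha and beta subunits that form the catalytic head. Atp5a1 measured 595, 586 and 657 CPM in controls 1, 2 and 3 and 681, 683 and 740 CPM in NMDA 1, 2 and 3. Atp5b measured 800, 797 and 839 CPM against 861, 934 and 919 CPM. In both, every NMDA library exceeded every control and control 3 was the highest control, unlike most members. The log2 differences were 0.19 ± 0.09 and 0.16 ± 0.09 (SE), with edgeR adjusted p-values of 0.10 and 0.22 within pairs. Per length they led the nuclear complex V genes at 210 and 203 CPM per kilobase, and their ranges over the libraries overlapped.

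The membrane ring of ATP synthase is built from subunit c, whose mature protein is the same from 3 genes. Atp5g3 held 68.9% to 72.2% of their summed counts, Atp5g1 20.5% to 23.2% and Atp5g2 7.27% to 7.90%. Atp5g3 measured 231, 189 and 162 CPM against 200, 201 and 199 CPM, Atp5g1 65.9, 53.9 and 50.2 CPM against 67.4, 58.9 and 57.5 CPM, and Atp5g2 23.3, 19.9 and 18.2 CPM against 22.9, 21.6 and 20.8 CPM. The order of the genes was the same in every library, with log2 differences of 0.04, 0.11 and 0.09. Atp5mpl, for a small subunit of the membrane part, had the lowest log2 difference of the complex, -0.11, at 159, 111 and 92.1 CPM against 108, 110 and 117 CPM. Its control values spread widely while its NMDA values were nearly equal.

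**Figure D5:**
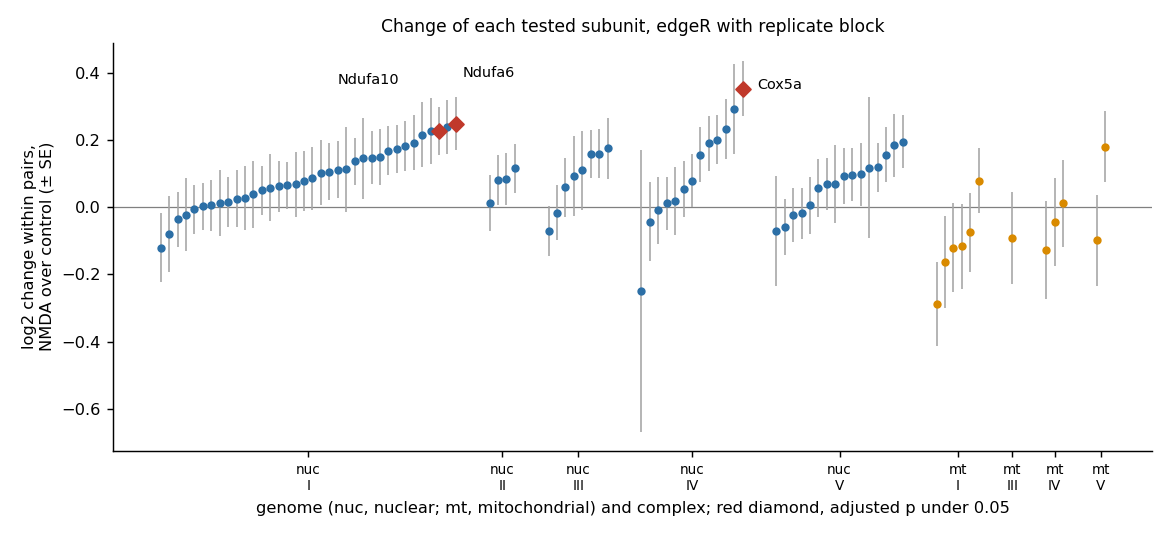
Log2 change within pairs (NMDA over control, edgeR with the replicate block, bars 1 SE) of the 89 tested members, sorted within each complex, with nuclear genes in blue, mitochondrial genes in orange and the 3 called members as red diamonds. Most nuclear members lie between 0 and 0.3 and most mitochondrial members below 0, with -0.29 for mt-Nd5 the lowest of them.

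Promoters of the called members were read from RefSeq (GRCm38.p6) because nuclear respiratory genes are known targets of the factors NRF1, GABP (also called NRF2) and YY1, and because CREB, which binds the CRE, acts downstream of NMDA receptors. The 100 bases before each start are shown, 5′ to 3′ on the gene's strand, with a match to a searched motif in capitals: chr9:57521132-57521231 (plus) for Cox5a, chr15:82354292-82354391 (minus) for Ndufa6, where the capitals mark the NRF1 core, and chr1:92473759-92473858 (minus) for Ndufa10, where they mark a CRE.
Cox5a: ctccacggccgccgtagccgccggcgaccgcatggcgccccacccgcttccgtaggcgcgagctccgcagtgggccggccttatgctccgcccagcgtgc
Ndufa6: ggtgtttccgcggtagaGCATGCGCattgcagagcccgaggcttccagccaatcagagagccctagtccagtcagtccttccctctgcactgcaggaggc
Ndufa10: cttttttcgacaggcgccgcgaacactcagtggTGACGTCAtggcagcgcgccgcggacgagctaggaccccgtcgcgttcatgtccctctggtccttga
The stretch of Cox5a held none of the searched letters. The starts used here are those of RefSeq and differ from the gene positions given above, which are from GENCODE. By the GENCODE positions the whole Ndufa10 stretch, with its CRE, lies inside the gene. Part of the Ndufa6 stretch does too, although not its NRF1 core.

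Motifs were searched on both strands in windows of 300 bases, 250 before and 50 after the start, which the table gave for 67 nuclear members. The NRF1 core GCGCATGC was in 10 of them (14.9%), beside 5.80% of 11109 tested genes with a window. The YY1 core AAGATGGC was in 10 (14.9%), beside 4.90%, the GABP core CCGGAAG in 17 (25.4%), beside 18.5%, and the CRE TGACGTCA in 4 (5.97%), beside 3.57%. The NRF1 core can overlap its own reverse complement. Members with the NRF1 core had a median log2 change within pairs of 0.13 (10 members), beside 0.08 for the 55 tested without it. With and without the GABP core the medians were 0.10 and 0.08, with and without the YY1 core 0.04 and 0.10, and with and without the CRE 0.09 in both. A match describes letters only.

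Other genes of mitochondrial energy metabolism were read from lists. Among assembly factors (46 found, 44 tested) none passed on group alone, and within pairs 1 rose and 3 fell (9.09% called, below the 14.0% of all genes tested), with a median log2 difference of -0.02 on group alone. Cox10, which makes the haem of complex IV, rose within pairs, at 17.8, 17.1 and 21.5 CPM in controls 1, 2 and 3 and 23.1, 23.3 and 26.1 CPM in NMDA 1, 2 and 3 (log2 0.37, edgeR adjusted p = 0.012). Cox17, a copper chaperone for the same complex, fell by 0.69 on the log2 scale within pairs, at 7.26, 8.12 and 3.96 CPM against 4.96, 3.47 and 3.36 CPM (adjusted p = 0.015). Control 3 lay among the NMDA values of Cox17. The complex I factors Tmem186 and Foxred1 fell by 0.36 and 0.37 (adjusted p = 0.022 and 0.023).

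Genes that copy, transcribe and process mitochondrial DNA (24 of 24 tested) had a median log2 difference of -0.10, with 17 negative, and none passed on group alone. Within pairs 2 fell (8.33%, beside 8.35% of all genes called lower). Pnpt1, for the polynucleotide phosphorylase that degrades and imports RNA in mitochondria, measured 54.6, 46.6 and 40.1 CPM in controls 1, 2 and 3 and 40.3, 32.1 and 28.03 CPM in NMDA 1, 2 and 3, a fall of 0.50 on the log2 scale (edgeR adjusted p = 0.00025 within pairs and 0.22 on group alone). Polrmt, the mitochondrial RNA polymerase, measured 16.5, 14.0 and 13.3 CPM against 11.4, 13.2 and 9.59 CPM, a fall of 0.36 (adjusted p = 0.045 within pairs). NMDA was lower in each pair for both, with control 3 just inside the range of the NMDA libraries for Pnpt1. Of the biogenesis regulators (15 tested, 20.0% called, beside 14.0% of all genes), Myc and Nfe2l2 rose within pairs (log2 0.41 and 0.29, adjusted p = 0.0036 and 0.022) and Creb1 fell by 0.26 (0.021). Ppargc1a, the coactivator PGC-1 alpha, measured 45.7, 46.8 and 52.6 CPM against 48.4, 51.0 and 53.7 CPM and passed in neither fit (adjusted p = 0.52 within pairs).

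Glycolytic genes (17 of 17 tested, median log2 difference 0.18, 15 positive) had 6 higher and 1 lower within pairs (41.2% called, beside 14.0% of all genes tested) and 0 on group alone. Tpi1 measured 136, 136 and 182 CPM in controls 1, 2 and 3 and 184, 179 and 215 CPM in NMDA 1, 2 and 3 (log2 0.35, edgeR adjusted p = 0.0031 within pairs), and Pkm 341, 398 and 460 CPM against 476, 487 and 521 CPM (0.32, 0.012). Aldoc, also among the 6, is on the list of astrocyte markers as well. For Tpi1 and Pkm control 3 was the highest control, the opposite of its place among respiratory genes. Genes of the citric acid cycle and pyruvate dehydrogenase (18 of 18 tested, median 0.11, 17 positive) had 0 called in either edgeR fit, with an unadjusted p under 0.05 for 1 on group alone and 7 within pairs (13.7% and 28.7% of all genes). Calcium uptake and VDAC genes (11 of 11, median 0.14, 11 positive) had 1 called within pairs (9.09%, beside 14.0% of all genes), Vdac1, the main outer membrane channel (log2 0.24, adjusted p = 0.041).

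Electron carriers and feeders (14 of 14 tested, median log2 difference 0.04) had 0 called in either edgeR fit, with an unadjusted p under 0.05 for 2 on group alone and 7 within pairs (again beside 13.7% and 28.7%). Oxidant defence genes (10 of 10, median 0.07) had 2 lower within pairs (20.0%, beside 8.35% of all genes), the uncoupling carriers Slc25a27 and Slc25a14, which fell by 0.44 and 0.27 (adjusted p = 0.0036 and 0.028). Mitochondrial ribosomal protein genes (76 of 77 tested, median 0.03, 2.63% called beside 14.0% of all genes) had Mrpl9 higher (log2 0.26, adjusted p = 0.035) and Mrps17 lower (-0.26, adjusted p = 0.037) within pairs. Noncoding RNAs of the mitochondrial genome (5 of 24 tested, 12 at 0 in every library) had 0 called in either fit. An unadjusted p under 0.05 was found for 1 in each, beside the same 13.7% and 28.7%. The ribosomal RNA mt-Rnr2 followed the protein genes, at 8952, 5586 and 4780 CPM in controls 1, 2 and 3 and 7021, 5354 and 6198 CPM in NMDA 1, 2 and 3, with control 1 highest and control 3 lowest.

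The remaining members were too low to test. The 10 pseudogene rows had at most 5 counts in any library, and 4 of them were at 0 in every library. The 5 nuclear genes left out by the filter had at most 13 counts.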

How the data were processed

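Poly(A)-selected RNA of 6 samples was sequenced. The authors deposited raw counts of reads per gene. Trimmomatic, TopHat and HTSeq are the tools named, per the submitters' processing notes, with mm10 and GRCm38.p6 as builds. Tool versions, annotation release and strand setting were not given in the sources used here. Groups came from the sample titles.

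All rows were fitted with edgeR 4.0.16 (R 4.3.3, limma 3.58.1): filterByExpr (minimum count 10, total 15), TMM scaling, robust quasi-likelihood F tests and Benjamini-Hochberg adjustment over 14642 genes at 0.05. Residual degrees of freedom were 4, and 2 with the replicate block. The biological coefficient of variation was 13% and 7.06%. The numbers were treated as pairs because same-numbered libraries deviated together in all 3 pairs (correlations 0.54, 0.38 and 0.49 over all genes, 0.47, 0.14 and 0.48 over tested members). Over the tested members alone control 3 also correlated with NMDA 2, at 0.23, above the 0.14 of pair 2. No label explains the numbers, so the pairing rests on the counts. Libraries of a group differed beyond sampling noise (chi-square per degree of freedom 8.17 to 59.0), and all 6 were kept. The edgeR fits without and with the block, and limma-voom and DESeq2 on group alone, were tested on simulated counts with known changes. The limit set there on false calls was not applied to DESeq2. Blocked DESeq2, blocked limma-voom and the fits with length offsets were not simulated.

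Positions and union exon lengths came from GENCODE M21. Long rare isoforms stretch the union length, so levels per length of some genes (such as Ndufb2 and Ndufs1) are understated. Rankings per length rest on these lengths. Cox6b1, with 708 bases, led the nuclear members per length, while Atp5b, with 4237 bases, had the higher CPM in every library. Named members are all mitochondrial genes, called members, the most abundant, highest and lowest nuclear member per complex, core subunits and isoform families, and up to 4 genes per other list by p. Some further genes that were called or whose groups did not overlap are also named, and some items are not reported here. Members and lists were chosen with earlier results of these data known. Alternatives were DESeq2 1.42.0, limma-voom, other scalings and filters, the block and each library left out. Blocked variants, length offsets (mgcv 1.9.3) and left-out pairs were added after the data were seen.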

Additional observations from a re-analysis of the deposited data

How the results depend on the processing

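Among 319 values of 40 named members under the planned settings that kept all libraries, 307 kept their direction and side of the threshold. Of the rest, 9 changed sign and 3 gained a call. Leaving out 1 library, also planned, gave 240 values, of which 203 were kept and 37 changed sign. Leaving out 1 pair, which was added later, gave 120 values, with 84 kept, 25 changed in sign and 11 that gained a call. The replicate block moved the number of nuclear members called from 0 to 3, as did the block with limma-voom (3) or with exonic length offsets (3). The block with DESeq2 gave 1 and with DESeq2 size factors 4. DESeq2 with the block called 1 mitochondrial member, mt-Nd5, and length offsets with the block called 1, mt-Atp8 (log2 0.34, adjusted p = 0.025). The cause of these changes was not tested. The edgeR block alone called 14.0% of all genes. For the other blocked variants the share of all genes called is not given here, so their counts have no background beside them.

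With all libraries kept, sign changes were small. Cox4i1, at -0.00012, became 0.0097 with DESeq2 size factors, 0.010 with upper quartile scaling, 0.0030 with mitochondrial rows left out of the scaling, 0.0050 with no filter, 0.0097 with the DESeq2 Wald test, 0.012 with limma-voom and 0.011 with the block. With the block it was 0.021 by DESeq2, 0.012 by limma-voom and 0.021 with DESeq2 size factors. Cox7a2 became 0.00072 and 0.00029 with the block by DESeq2 and with DESeq2 size factors. With length offsets Ndufa4 was -0.0040 and Sdhd -0.016 (-0.013 with the block). mt-Co2 became 0.015 with limma-voom, 0.0060 with length offsets and 0.011 with the block, and with the block 0.021 by DESeq2, 0.017 by limma-voom, 0.021 with DESeq2 size factors and 0.014 with length offsets.

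Leaving out 1 library or pair gave these ranges, with the lowest value most often without control 3 and the highest without control 1 or pair 1: nuclear members called 0 to 18, median log2 change -0.022 to 0.18 (nuclear) and -0.36 to 0.11 (mitochondrial), log2 ratio in complex V -0.37 to 0.0040, and share of counts from mitochondrial members, NMDA minus control, -3.25 to 0.413 percentage points. Log2 changes ranged from -0.070 to 0.20 for Atp5g3, -0.27 to 0.18 for Atp5mpl, -0.12 to 0.13 for Cox4i1, -0.036 to 0.19 for Cox6b1, -0.76 to 0.16 for Cox7a1, -0.20 to 0.15 for Cox7a2, -0.12 to 0.22 for Ndufa4, -0.27 to 0.0073 for Ndufb2, -0.0037 to 0.11 for Ndufs1, -0.073 to 0.24 for Ndufv1, -0.0073 to 0.16 for Sdhb, -0.085 to 0.15 for Sdhd and -0.18 to 0.078 for Uqcrh. For mt-Nd5, negative in each, they ranged from -0.52 to -0.11. They ranged from -0.36 to 0.12 for mt-Atp6, -0.077 to 0.36 for mt-Atp8, -0.38 to 0.10 for mt-Co1, -0.24 to 0.18 for mt-Co2, -0.28 to 0.18 for mt-Co3, -0.37 to 0.11 for mt-Cytb, -0.40 to 0.081 for mt-Nd1, -0.36 to 0.049 for mt-Nd2, -0.073 to 0.21 for mt-Nd3, -0.40 to 0.0013 for mt-Nd4 and -0.34 to 0.14 for mt-Nd6.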
